A study of Bubalus bubalis with 12 samples.

Results

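Genes of monocytes and macrophages were followed through PGF2α-induced regression of the buffalo corpus luteum (CL), the progesterone-secreting gland that forms in the ovary after ovulation. The symbols were CD14, CD68, CD163, FCGR2B, FCER1G, LAPTM5, LGALS3, MSR1, TYROBP and AIF1, and every probe set whose annotated symbol was exactly one of them was taken. They were chosen by name as genes of monocytes and macrophages, but with the log2 differences of these same arrays already known, so the differences and calls of these genes below are a description. A call says only whether a probe set passed in the fit over the whole array, and neither the calls nor any count at a p threshold is support for these genes. CD163 matched no probe set in the annotation used here. The other 9 genes were represented by 12 probe sets (2 for CD14, 3 for MSR1 and 1 for each of the other 7 genes) of the 24016 probe sets tested, and by 9 of the 9155 genes that a probe set named with 1 symbol.

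Each array held total RNA of whole CL from 1 buffalo cow (Bubalus bubalis) on day 11 of the estrous cycle. The 4 control animals (0 h) received no treatment. The remaining animals were injected intramuscularly with cloprostenol (500 µg), which acts as prostaglandin F2α does, and their CL was collected 3 h (2 animals, numbered 1 and 3), 6 h (3 animals) or 18 h (3 animals) later. No array of vehicle-treated animals at the later times was analysed here, and the 3 treated groups were all compared with the same 4 controls.

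Monocytes leave the blood and mature into macrophages in tissue, where they engulf dying cells and digest them in lysosomes. They sense bacterial products and antibody-coated particles through surface receptors, and several of these receptors have no signalling tail of their own and pass their signal through small adaptor proteins. Macrophages are a regular part of the ruminant CL, and their accumulation during luteal regression is well known in cattle and other species.

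All 12 arrays had medians between 7.09 and 7.17 on the log2 scale of the deposited values, on which 1 unit is a doubling, and values ran from 3.18 to 15.33. Control replicates 1 and 4 were nearly alike, with 6 probe sets more than 2-fold apart against 220 or more in every other pair of arrays within a group and 1306 between the 2 arrays at 3 h. The labels call them separate biological replicates, and results with their average as 1 control sample are given beside the counts that it moved. Control replicate 3 stood apart from the other 3 controls in most of the genes described here and is given apart. Fits without control replicate 3 kept control replicates 1 and 4 as separate samples. The tissue label was borne out by the steroidogenic genes, with STAR between 14.08 and 14.91 and HSD3B1 between 13.29 and 14.92 on the 12 arrays. Of the defining markers of macrophages outside the 10 symbols, CSF1R, the receptor for macrophage colony-stimulating factor, lay between 8.34 and 9.43. ITGAM, an integrin chain of myeloid cells, lay between 3.90 and 4.24, near the bottom of the scale, and was not used further. The probes were designed on cattle sequence and the values are not scaled by transcript length, so the level of 1 probe set was never set against that of another.

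At 18 h post PGF2α, 7 of the 12 probe sets, of 6 genes, were up regulated against control, where 5.71% of all probe sets were. None was down regulated, where 6.63% of all probe sets were. The called genes were CD14 (6.24-fold on its brighter probe set), FCGR2B (5.78-fold), LGALS3 (3.84-fold), CD68 (3.03-fold), TYROBP (2.22-fold) and LAPTM5 (2.14-fold). CD14 and LGALS3 were already higher at 6 h, and no probe set was called at 3 h. FCER1G, MSR1 and AIF1 were not called at any time with all 4 controls, and in each of them control replicate 3 lay near or above the level of the 18 h animals. In whole tissue, a larger number of cells of a type and more RNA of a gene in each cell cannot be told apart. A probe set was called at an adjusted p under 0.05 in a limma fit over all 24016 probe sets.

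**Figure D1:**
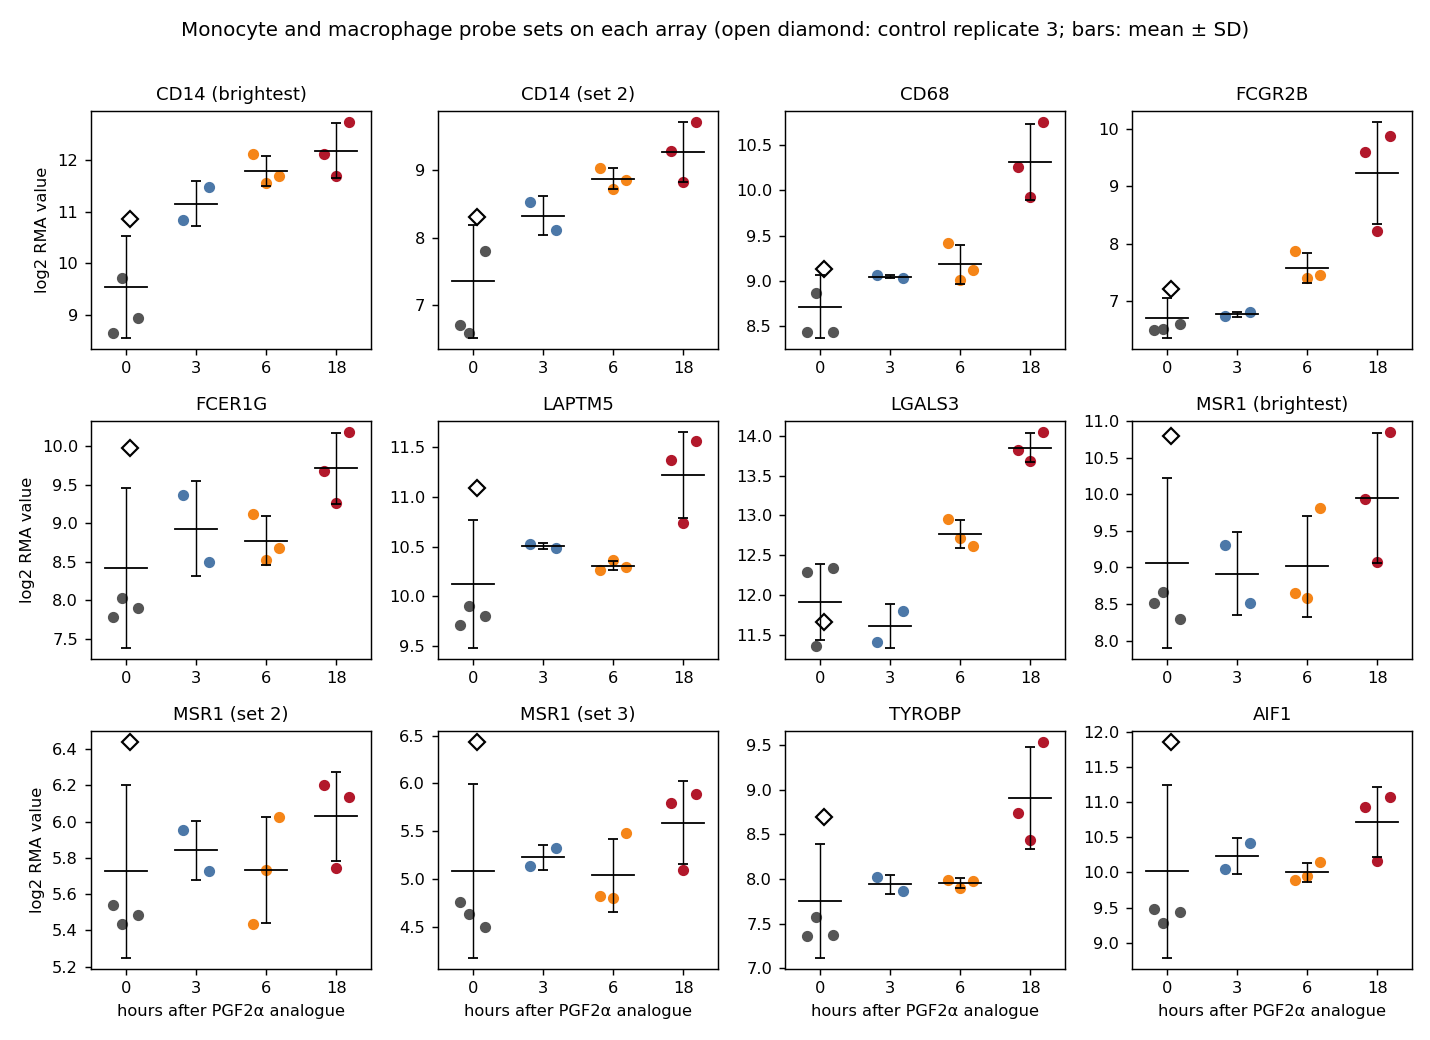
log2 RMA values (y axis) of the 12 probe sets on each of the 12 arrays against hours post PGF2α (x axis), 1 panel per probe set with its own range; points are arrays, the open diamond is control replicate 3, and bars are group means ± SD. CD14, CD68, FCGR2B and LGALS3 had all 3 arrays at 18 h above all 4 controls, whereas in AIF1 control replicate 3 was the highest of the 12 arrays.

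The surface receptors for bacterial products came first. CD14 is the co-receptor that hands lipopolysaccharide to the Toll-like receptor TLR4 and is a classical monocyte marker. On its brighter probe set, control replicates 1, 2 and 4 read 8.64, 9.72 and 8.94 and control replicate 3 read 10.85. The arrays at 3 h read 10.84 and 11.47, those at 6 h 12.12, 11.56 and 11.69, and those at 18 h 12.11, 11.68 and 12.74. Every array at 6 h and 18 h lay above every control, and the lower array at 3 h lay level with control replicate 3. The difference from control was 1.62 ± 0.51 (SE) log2 units at 3 h, which was not called, 2.25 ± 0.45 at 6 h and 2.64 ± 0.45 at 18 h, which were called. Between 6 h and 18 h the arrays overlapped, with a difference of 0.39 ± 0.48.

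The second CD14 probe set read 6.70, 6.58 and 7.81 in control replicates 1, 2 and 4 and 8.30 in control replicate 3. It read 8.53 and 8.12 at 3 h, 9.04, 8.72 and 8.86 at 6 h and 9.29, 8.82 and 9.72 at 18 h. Its order of groups was that of the brighter probe set, with all arrays at 6 h and 18 h above all controls, and it was among the 6 probe sets in which control replicates 1 and 4 parted by more than 2-fold. The differences were 0.98 ± 0.43 at 3 h, not called, 1.53 ± 0.38 (2.88-fold) at 6 h and 1.93 ± 0.38 (3.80-fold) at 18 h, both called. The call at 6 h was lost when control replicate 1, control replicate 2 or any 1 of the 3 arrays at 6 h was left out.

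MSR1, the class A macrophage scavenger receptor that takes up modified lipoproteins and debris, behaved otherwise. Its brightest probe set read 8.51, 8.66 and 8.29 in control replicates 1, 2 and 4, and 10.80 in control replicate 3. It read 9.31 and 8.51 at 3 h, 8.65, 8.58 and 9.82 at 6 h, and 9.93, 9.07 and 10.85 at 18 h. Only 1 array of the 8 treated ones, 18 h replicate 3, lay above control replicate 3, and the difference at 18 h was 0.89 ± 0.60 and not called. Without control replicate 3 it was 1.46 ± 0.44 and was called.

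The other 2 MSR1 probe sets were dim, at the 29.9 and 21.8 percentile of all probe sets by mean level, and lay between 5.44 and 6.44 and between 4.50 and 6.44. On both of them control replicate 3, at 6.44, was the highest of the 12 arrays. Their differences at 18 h were 0.30 ± 0.24 and 0.51 ± 0.41, neither called. Without control replicate 3 they were 0.54 ± 0.16 and 0.96 ± 0.23, both called.

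Next came the receptors for antibody and their adaptors. FCGR2B, the inhibitory receptor for immunoglobulin G, which B cells carry as well, had the largest difference between 6 h and 18 h of the 12 probe sets. It read 6.49, 6.51 and 6.60 in control replicates 1, 2 and 4 and 7.22 in control replicate 3, then 6.74 and 6.80 at 3 h. At 6 h it read 7.88, 7.41 and 7.45, and at 18 h 9.60, 8.22 and 9.88. Both arrays at 3 h lay within the range of the controls, whereas all arrays at 6 h lay above the controls and all arrays at 18 h above those at 6 h. The differences from control were 0.06 ± 0.38 at 3 h and 0.88 ± 0.33 at 6 h, neither called, and 2.53 ± 0.33 at 18 h, called. At 6 h FCGR2B was called without 18 h replicate 2 and when only the 2 groups were fitted. From 6 h to 18 h the difference was 1.66 ± 0.36, which was not called with all arrays and was called without 18 h replicate 2.

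FCER1G is the gamma chain that carries the activating motif for several Fc receptors. It read 7.79, 8.03 and 7.90 in control replicates 1, 2 and 4 and 9.98 in control replicate 3. The arrays at 3 h read 9.37 and 8.49, those at 6 h 9.13, 8.52 and 8.68, and those at 18 h 9.68, 9.27 and 10.19. All 8 treated arrays were above control replicates 1, 2 and 4, and 1 of them, 18 h replicate 3, was above control replicate 3. The difference at 18 h was 1.29 ± 0.47 and was not called. Without control replicate 3 it was 1.81 ± 0.27 (3.49-fold) and was called.

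TYROBP, also known as DAP12, is the adaptor that serves receptors of the TREM family. It read 7.37, 7.57 and 7.38 in control replicates 1, 2 and 4, and 8.70 in control replicate 3. Treated arrays read 8.02 and 7.87 at 3 h, 7.99, 7.90 and 7.97 at 6 h and 8.74, 8.43 and 9.54 at 18 h. The arrays at 3 h and 6 h sat in a narrow band above the 3 like controls, and of the arrays at 18 h only replicate 2 lay below control replicate 3. The difference at 18 h was 1.15 ± 0.32 with all controls and 1.46 ± 0.22 without control replicate 3, both called. The call with all controls was lost when any 1 of 8 arrays was left out (control replicates 1, 2 and 4, the 3 arrays at 6 h and 18 h replicates 1 and 3) and when control replicates 1 and 4 were averaged.

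Of the lysosomal proteins, CD68 is a membrane glycoprotein of late endosomes and lysosomes that is widely used to stain macrophages. It read 8.43, 8.87 and 8.43 in control replicates 1, 2 and 4 and 9.13 in control replicate 3. It read 9.06 and 9.04 at 3 h, 9.42, 9.01 and 9.12 at 6 h, and 10.26, 9.93 and 10.76 at 18 h. The first 2 time points overlapped the controls through control replicate 3, and the 3 arrays at 18 h stood above all 9 others. The differences were 0.33 ± 0.24 at 3 h and 0.47 ± 0.21 at 6 h, not called, and 1.60 ± 0.21 at 18 h, called. From 6 h to 18 h CD68 differed by 1.13 ± 0.23, which was not called with all arrays and was called without control replicate 3.

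LAPTM5 is a lysosomal membrane protein of blood-derived cells in general. It read 9.71, 9.90 and 9.80 in control replicates 1, 2 and 4 and 11.09 in control replicate 3. It read 10.53 and 10.49 at 3 h, 10.27, 10.36 and 10.30 at 6 h, and 11.37, 10.74 and 11.56 at 18 h. As in TYROBP, every treated array was above the 3 like controls, and 18 h replicate 2 was the array at 18 h below control replicate 3. The difference at 18 h was 1.10 ± 0.30 with all controls and 1.42 ± 0.17 without control replicate 3, both called. Leaving out control replicate 1, 2 or 4 or 18 h replicate 1 or 3 ended the call, as did averaging control replicates 1 and 4.

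LGALS3 encodes galectin-3, a lectin that binds β-galactosides and is abundant in activated macrophages, though not in them alone. It read 12.29, 11.36, 11.66 and 12.34 in control replicates 1 to 4. It read 11.41 and 11.80 at 3 h, 12.96, 12.71 and 12.62 at 6 h, and 13.82, 13.69 and 14.05 at 18 h. It was the only one of the 12 probe sets in which control replicate 3 was not the highest control, and all arrays at 18 h lay above all arrays at 6 h, which lay above all controls. The difference was −0.30 ± 0.26 at 3 h, not called, then 0.85 ± 0.23 (1.81-fold) at 6 h and 1.94 ± 0.23 at 18 h, both called. The call at 6 h was lost without control replicate 2, without control replicate 3 (0.77 ± 0.24) and without any 1 of the arrays at 6 h. From 6 h to 18 h LGALS3 differed by 1.09 ± 0.24, which was not called with all arrays and was called when only these 2 groups were fitted.

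AIF1, an actin-binding protein also known as Iba1 that marks macrophages and microglia, read 9.48, 9.28 and 9.43 in control replicates 1, 2 and 4. Control replicate 3, at 11.86, was the highest of the 12 arrays. The treated arrays read 10.05 and 10.42 at 3 h, 9.90, 9.95 and 10.15 at 6 h, and 10.93, 10.16 and 11.07 at 18 h. All 8 treated arrays were above the 3 like controls and below control replicate 3. The difference at 18 h was 0.70 ± 0.52 with all controls, not called, and 1.32 ± 0.21 (2.50-fold) without control replicate 3, called.

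The calls were read against those over the whole array. At 3 h none of the 12 probe sets was called by limma, where 0.00416% of all probe sets were called higher. Of the 12, 2, both of CD14, had an unadjusted p under 0.05, as had 2376 of all 24016 probe sets. At 6 h 3 of the 12 (both CD14 probe sets and LGALS3) were called higher, where 5.26% of all probe sets were. At 18 h 7 of the 12 were called higher, where 5.71% of all probe sets were. At 18 h against 6 h limma called none of the 12, where 0.258% of all were called higher. An unadjusted p under 0.05 was found there in 5 of the 12 (CD68, FCGR2B, LAPTM5, LGALS3 and TYROBP) and in 2725 of all 24016 probe sets. With control replicates 1 and 4 averaged, 3 of the 12 were called at 6 h and 5 at 18 h, LAPTM5 and TYROBP being lost. Of all 24016 probe sets, 1376 and 1856 were then called in either direction. At 6 h 1 of the 12 was called without control replicate 2 and without any 1 of the 3 arrays at 6 h.

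Arrays without overlap were also counted, at 6 h and 18 h against all controls and at 18 h against 6 h. All 3 arrays at 6 h lay above all 4 controls in 4 of the 12 probe sets (both of CD14, FCGR2B and LGALS3), an arrangement found in 11.1% of all probe sets. At 18 h this held for 5 of the 12 (CD68 in addition), against 11.6% of all. All 3 arrays at 18 h lay above all 3 at 6 h in 7 of the 12, namely CD68, FCGR2B, FCER1G, LAPTM5, LGALS3, TYROBP and AIF1, against 11.3% of all. The median difference of the 12 probe sets was 0.20 at 3 h, 0.28 at 6 h and 1.22 at 18 h, and that of all probe sets −0.01, −0.04 and −0.02. Between 6 h and 18 h the medians were 0.92 for the 12 and 0.02 for all.

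Without control replicate 3, all 12 probe sets were called higher at 18 h, where 6.66% of all probe sets were. At 6 h the 2 CD14 probe sets were called, where 6.21% of all were. Differences of the 12 at 18 h then ran from 0.54 in the dim MSR1 probe set to 3.08 in CD14 (8.44-fold), with FCGR2B at 2.70 (6.51-fold), and their median was 1.60. At 3 h none of the 12 was called in that fit either. Control replicate 3 was the highest control in 11 of the 12, so leaving it out raised those differences by construction. The larger number of calls is therefore no support for these genes. Leaving out this array also lowered the standard errors of AIF1, FCER1G and MSR1, as that of AIF1 at 18 h fell from 0.52 to 0.21. The controls left included the nearly alike control replicates 1 and 4, so their spread may be understated. The calls and standard errors without control replicate 3 rest on that spread. No fit both left out control replicate 3 and averaged control replicates 1 and 4. With control replicate 3 kept, that averaging lowered the called probe sets over the array at 18 h from 2964 to 1856.

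**Figure D2:**
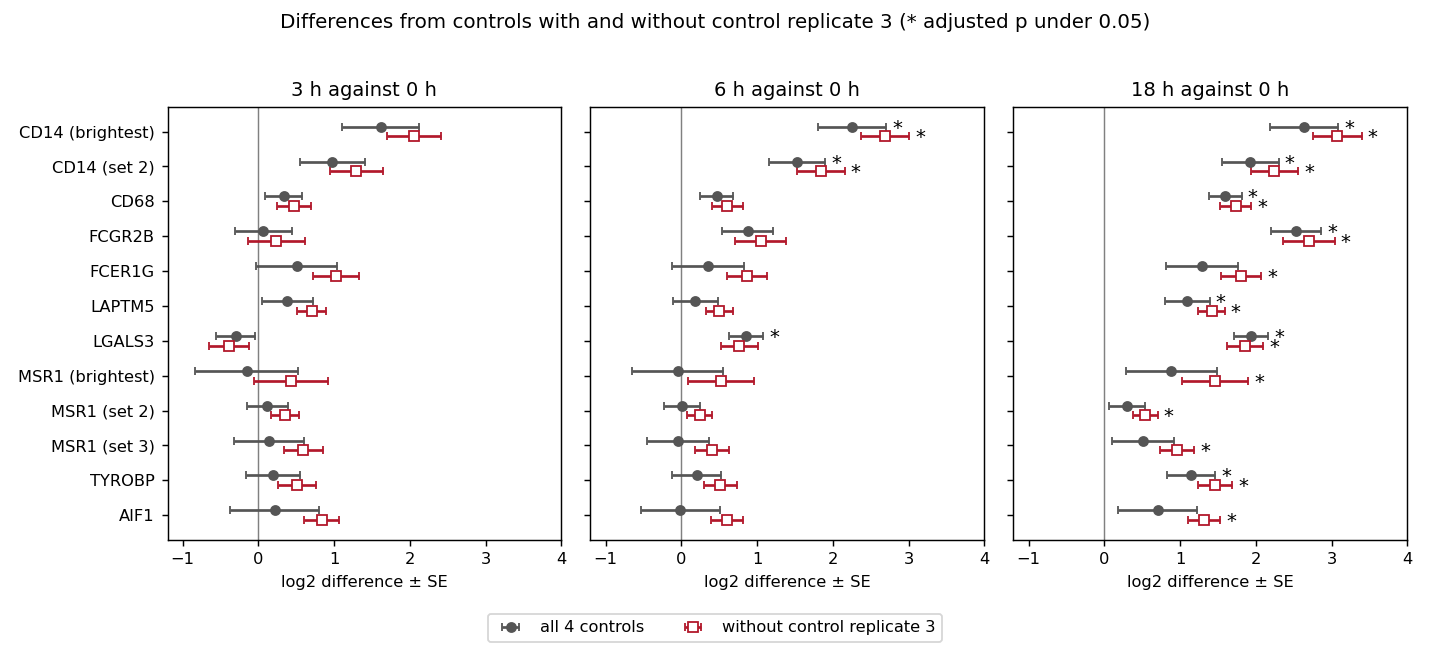
Log2 difference from control ± SE (x axis) of the 12 probe sets at 3, 6 and 18 h post PGF2α with all 4 controls (filled circles) and without control replicate 3 (open squares), with an asterisk at an adjusted p under 0.05 in limma. At 18 h 7 probe sets passed with all controls, where 5.71% of all probe sets were called higher, and 12 without control replicate 3, where 6.66% were.

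Control replicate 3 was the highest of the 4 controls in 11 of the 12 probe sets, an arrangement found in 23.3% of all. It lay at least 1 log2 unit above the mean of the other 3 controls in 8 of the 12, against 2.04% of all. The excess was 2.46 in AIF1, 2.31 in the brightest MSR1 probe set, 2.07 in FCER1G, 1.75 in CD14, 1.28 in LAPTM5 and 1.26 in TYROBP. It was 0.68 in FCGR2B, 0.55 in CD68 and −0.34 in LGALS3.

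The genes thus differed in how control replicate 3 compared with the animals at 18 h, each taken from control replicates 1, 2 and 4. Its excess was 186% of the mean difference at 18 h in AIF1, 158% in the brightest MSR1 probe set and 115% in FCER1G. It was 90.4% in LAPTM5, 86.0% in TYROBP and 56.8% in CD14. It was 31.9% in CD68 and 25.3% in FCGR2B. These shares are a description of 1 animal, and what set it apart was not tested. Against the 3 like controls, all 3 arrays at 18 h were higher in 12 of 12 probe sets (15.6% of all probe sets), all 3 arrays at 6 h in 10 (14.7% of all), and both arrays at 3 h in 10 (9.61% of all). Setting aside the highest control of 11 of the 12 favours such counts, so they too are a description.

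**Figure D3:**
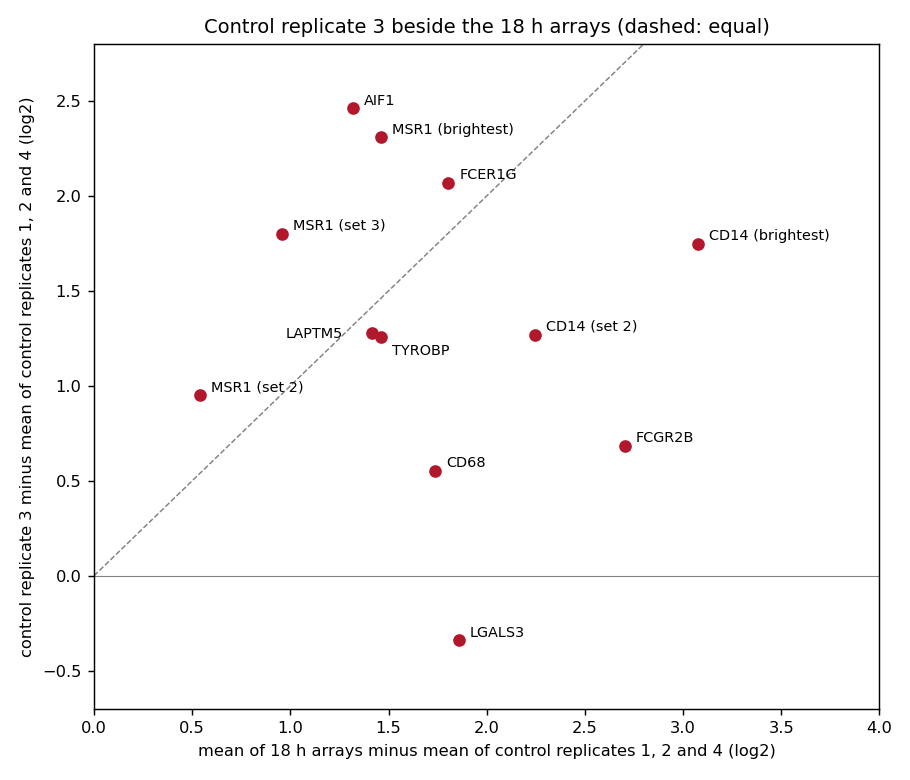
Control replicate 3 minus the mean of control replicates 1, 2 and 4 (y axis, log2) against the mean of the 3 arrays at 18 h minus the same mean (x axis, log2), 1 point per probe set; the dashed line marks equal values. AIF1, FCER1G and the 3 MSR1 probe sets lie above the line, and LGALS3 alone lies below 0, at −0.34.

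The 3 animals at 18 h were also ordered alike. Replicate 2 was the lowest of the 3 in 12 of 12 probe sets (36.3% of all probe sets) and replicate 3 the highest in 11 of 12 (33.7% of all), the exception being a dim MSR1 probe set. The gap was widest in FCGR2B, at 8.22 in replicate 2 against 9.60 and 9.88 in the others, and in the brightest MSR1 probe set, at 9.07 against 9.93 and 10.85.

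Likeness between genes was measured as the root mean square difference of their log2 values over the 12 arrays, each gene centred on its own mean. Among the 12 probe sets the closest pair was LAPTM5 and TYROBP at 0.157, followed by a dim MSR1 probe set and AIF1 at 0.223. The farthest were the brighter CD14 probe set and a dim MSR1 probe set at 1.12. Among the other 9154 genes, the nearest to LAPTM5 after TYROBP were RGS10 (0.199) and LY9 (0.203). The nearest to CD68 were SNX9 (0.219), S100A2 (0.227) and CTSZ (0.243).

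The genes nearest to CD14 were PLAU, the urokinase plasminogen activator (0.392), CSF2RB (0.472) and LOXL4 (0.475). These distances were larger than those of LAPTM5, but the measure is not scaled and grows with the range of a gene. CD14 ran from 8.64 to 12.74 and LAPTM5 from 9.71 to 11.56 over the 12 arrays. The genes nearest to FCGR2B were SRPX2 (0.389), UHRF2 (0.466) and CBR3 (0.466), and to LGALS3 PPFIBP1 (0.286), UHRF2 (0.369) and WLS (0.409). UHRF2 was thus near to both FCGR2B and LGALS3. This measure follows the group means and control replicate 3 in particular, and it does not bear on shared control.

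Genes related to the 10 symbols were taken from 8 lists of partners, pathways and families, and 68 of the 88 listed genes were measured. The lists were not confined to genes of macrophages, so their counts and medians do not describe macrophages as such. At 18 h 6 of the 68 were called higher and 1 lower, and at 6 h 1 higher and 3 lower, with medians of 0.18 and 0.03. Over all probe sets 5.71% were called higher and 6.63% lower at 18 h, and 5.26% higher and 6.08% lower at 6 h. Without control replicate 3, 22 were called higher and 1 lower at 18 h, and 12 higher and 2 lower at 6 h, where 6.66% and 6.21% of all probe sets were called higher. Without 18 h replicate 1, 3 of the 68 were called at 18 h. At 6 h 1 was called without control replicate 1, control replicate 4 or 6 h replicate 3, and 2 without 6 h replicate 2 or 18 h replicate 3.

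Of the partners of CD14, 8 genes of the Toll-like receptor pathway were measured, and TLR4, the signalling receptor itself, was the 1 called higher at 18 h. TLR4 read 7.60, 7.94 and 7.66 in control replicates 1, 2 and 4, 9.19 in control replicate 3 and 9.40, 8.88 and 9.65 at 18 h. Its difference was 1.22 ± 0.34 (limma, adjusted p = 0.0371) with overlap through control replicate 3. At 6 h TLR4 was not called with all controls (1.01) and was called without control replicate 3 (1.37). IRAK4, a kinase of this pathway, was called lower at 6 h with all controls and not without control replicate 3. TLR2, named here after its values were seen, read 9.53 in control replicate 3 against 8.72 to 9.88 at 18 h and differed by 1.35 ± 0.49 (limma, adjusted p = 0.0999). The difference of TLR2 at 18 h was 1.89 without control replicate 3 and was called.

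None of the 9 measured genes of Fc receptor and activating or inhibitory motif signalling was called by limma at 18 h. Without control replicate 3, 5 of the 9 were called higher, where 6.66% of all probe sets were. With all controls 2 of the 9 had an unadjusted p under 0.05 at 18 h, as had 6259 of all 24016 probe sets. FCGR1A, the high-affinity receptor for immunoglobulin G, was chosen after its values were seen. It read 8.14, 8.24 and 8.23 in control replicates 1, 2 and 4, 10.40 in control replicate 3 and 9.10, 8.90 and 8.80 at 18 h. As in AIF1, control replicate 3 was above every treated array, whereas FCGR2B at 18 h was above every control. Unlike AIF1, FCGR1A was not above the 3 like controls on every treated array, reading 8.01, 8.19 and 8.66 at 6 h. FCGR1A differed by 0.18 ± 0.45 at 18 h, not called, and by 0.73 without control replicate 3, called.

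Of 14 lysosomal genes, 3 were called higher at 18 h, namely the cathepsins CTSZ (1.17 ± 0.20) and CTSB (0.56 ± 0.17) and GPNMB (1.67 ± 0.38), a lysosomal glycoprotein of phagocytes. CTSB was called on only 1 of its 6 probe sets, and that call was lost without control replicate 3 (0.46). CTSZ was also the single gene of the 68 called at 18 h against 6 h on its brightest probe set. For GPNMB 1 of 3 probe sets was called there, not the brightest. CTSZ read 11.33, 11.31 and 11.38 at 6 h and 12.39, 12.15 and 12.98 at 18 h, with no overlap, as in CD68. LAMP2, a lysosomal membrane protein, was called lower at 6 h. The 2 relatives of LAPTM5, LAPTM4A and LAPTM4B, were not called by limma at any time, and neither had an unadjusted p under 0.05.

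Of 7 other scavenger receptors, OLR1, the receptor for oxidised lipoprotein, was called higher at 6 h, by 3.87 ± 0.71 (limma, adjusted p = 0.00759). It read 11.21, 10.59 and 9.89 at 6 h and 9.04, 8.65 and 8.76 at 18 h, against 5.68, 6.33, 9.21 and 5.56 in control replicates 1 to 4. OLR1 was thus highest at 6 h, which none of the 9 genes was on its group means. Its difference at 18 h was 2.12 ± 0.71 (limma, adjusted p = 0.0767) and without control replicate 3 was 2.96 (limma, adjusted p = 0.000225), which was called.

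Of the 5 other galectins and galectin ligands, LGALS3BP, the secreted protein that binds galectin-3, was down regulated at 18 h. It read 11.76, 11.72, 11.83 and 11.77 in control replicates 1 to 4 and 11.12, 11.00 and 10.51 at 18 h, without overlap, and differed by −0.90 ± 0.15 (limma, adjusted p = 0.00313). LGALS9 was called lower at 6 h, by −0.78 ± 0.22. LGALS3 was higher at both of these times.

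Among 15 further myeloid genes, CD86, a co-stimulatory molecule of antigen-presenting cells, was the 1 called at 18 h, at 1.53 ± 0.32 (limma, adjusted p = 0.0102). It read 6.20, 6.15, 7.39 and 6.33 in control replicates 1 to 4 and 8.42, 7.31 and 8.41 at 18 h. CSF1R differed by 0.34 ± 0.22 at 18 h and was not called, its values of 8.94, 8.77 and 9.28 at 18 h reaching that of control replicate 3, 9.28. The difference of CSF1R was 0.55 without control replicate 3 and was called (limma, adjusted p = 0.0391). The 3 chains of complement C1q, a product of tissue macrophages, were looked at after their values were seen. C1QA read 9.09, 8.92, 11.27 and 9.21 in control replicates 1 to 4 and 10.45, 8.93 and 9.33 at 18 h. Differences of C1QA, C1QB and C1QC at 18 h were −0.05 ± 0.51, −0.07 ± 0.43 and −0.05 ± 0.42 with all controls and 0.50, 0.39 and 0.38 without control replicate 3, none called in either fit. The C1q chains and CD14 thus shared the high control replicate 3 but not the difference at 18 h, and this contrast was not tested.

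Of 8 monocyte growth factors and chemoattractants, CSF2 was called higher at 18 h, by 0.98 ± 0.22 (limma, adjusted p = 0.0138). The chemokines CCL2 and CCL8 were not called with all controls and were called without control replicate 3, by 2.71 and 2.98. CCL2, which draws monocytes from the blood, read 10.13, 9.85, 12.89 and 10.07 in control replicates 1 to 4 and 12.67, 12.12 and 13.38 at 18 h, again with control replicate 3 among the late values. Both chemokines were named after their values were seen.

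**Figure D4:**
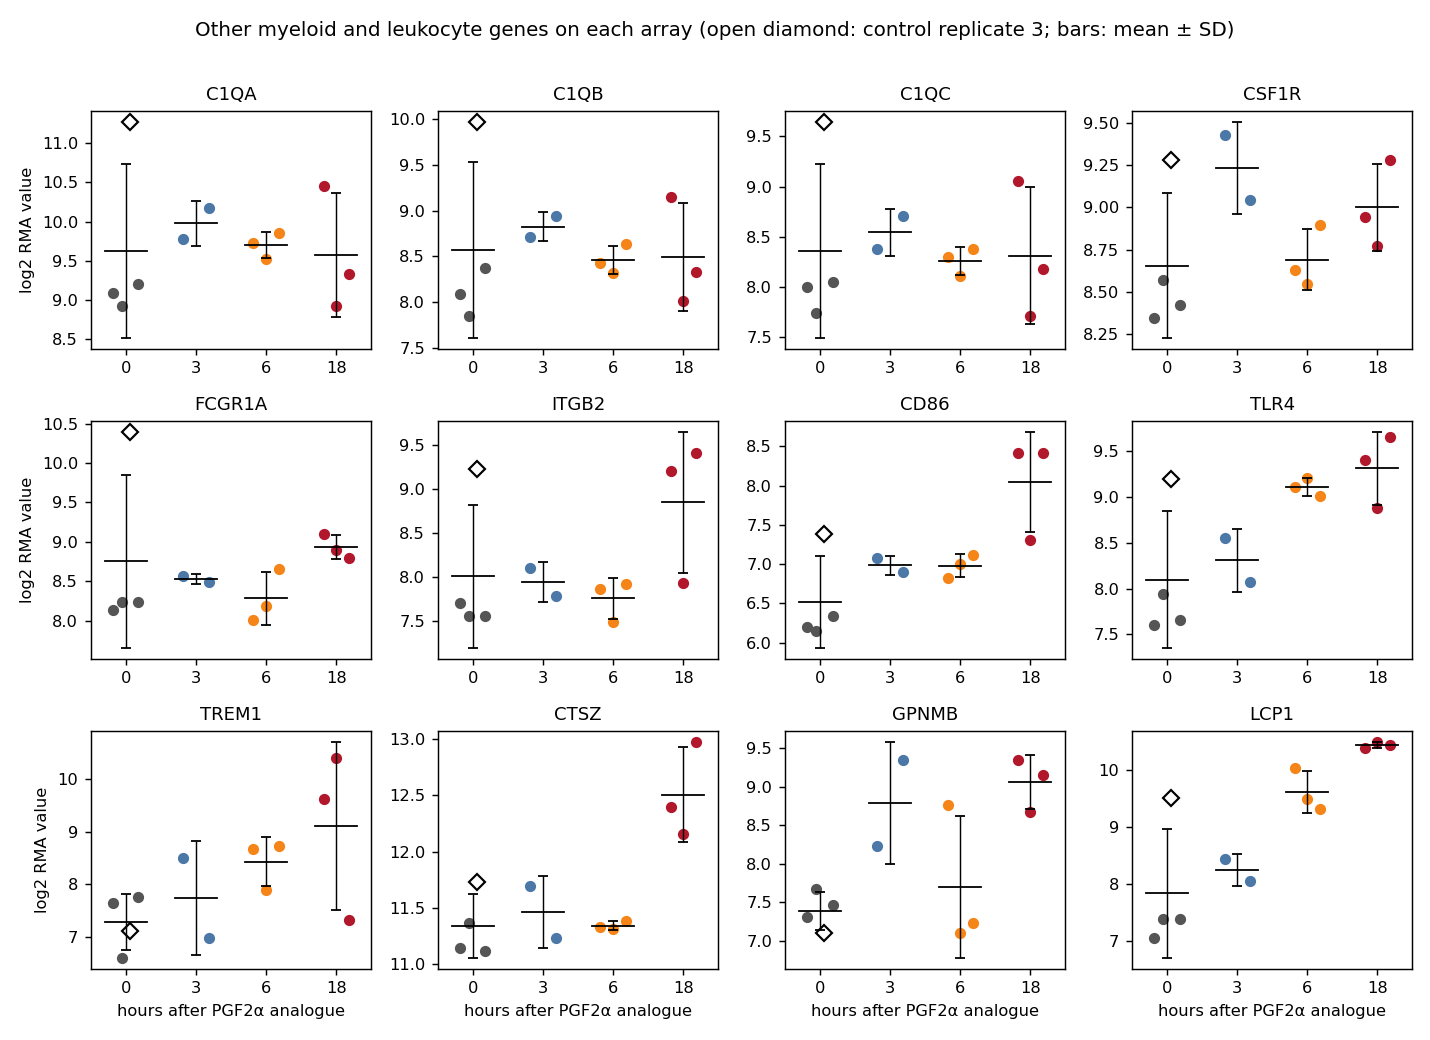
log2 RMA values (y axis) of 12 other myeloid or leukocyte genes on each array against hours post PGF2α (x axis), with control replicate 3 as the open diamond and bars as group means ± SD; these 12 genes were picked for display after their values were seen. In CTSZ, GPNMB and LCP1 the 3 arrays at 18 h lay above all controls, whereas in C1QA, C1QB, C1QC and FCGR1A control replicate 3 was the highest array. In GPNMB control replicate 3, at 7.10, was the lowest control.

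Markers of other cells were set beside these results. Of 8 pan-leukocyte genes, LCP1, an actin-bundling protein of white blood cells, was called higher at 6 h (1.78 ± 0.47) and at 18 h (2.61 ± 0.47, limma, adjusted p = 0.0047). Without control replicate 3, 4 of the 8 were called higher at 18 h, where 6.66% of all probe sets were. PTPRC, the common leukocyte antigen CD45, was dim, at 5.11 to 6.15, and differed by −0.02 ± 0.24 at 18 h. The mean level of the 8 genes was 8.56 in control replicate 3, 7.09 to 7.23 in the other controls and 7.84 to 8.53 at 18 h, and control replicate 3 was the highest control in 8 of the 8. For the 9 macrophage genes the mean level was 10.14 in control replicate 3, 8.75 to 8.88 in the other controls, 9.43 to 9.48 at 3 h, 9.56 to 9.81 at 6 h and 10.13 to 11.18 at 18 h. For the 15 further myeloid genes it was 8.47 in control replicate 3, 7.54 to 7.59 in the other controls and 7.95 to 8.55 at 18 h.

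Few lymphocyte and neutrophil markers were called. Of 12 genes of T and natural killer cells, none was called higher and 1, LCK, was called lower by limma at 18 h, by −0.61, and 2, LCK and CD247, were called lower at 6 h. Their mean level was 7.24 in control replicate 3, 6.84 to 6.96 in the other controls and 6.66 to 7.13 at 18 h, and CD3E lay between 7.31 and 7.93 on the 12 arrays. None of 3 B cell genes and none of 4 neutrophil genes was called by limma at any time. The count with an unadjusted p under 0.05 was 0 at every time except for 1 neutrophil gene at 6 h, where 6043 of all 24016 probe sets had one. The B cell gene MS4A1 lay between 5.67 and 7.06. The mean level of the neutrophil genes was 9.56 in control replicate 3, 9.16 to 9.69 in the other controls and 9.72 to 10.03 at 18 h, but 8.65 and 10.49 at 3 h.

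**Figure D5:**
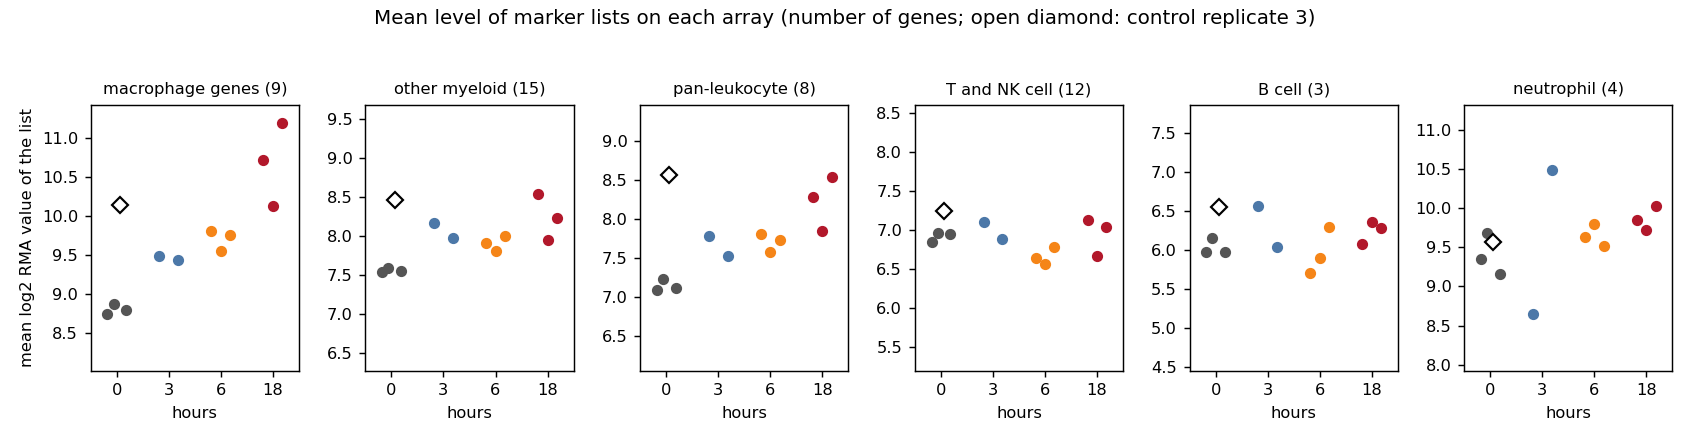
Mean log2 RMA level (y axis) of the 9 macrophage genes and of 5 lists of other leukocyte genes on each array against hours post PGF2α (x axis), all panels spanning the same number of log2 units, with control replicate 3 as the open diamond. The macrophage genes lay between 8.75 and 8.88 in control replicates 1, 2 and 4 and between 10.13 and 11.18 at 18 h. Control replicate 3, at 10.14, overlapped the arrays at 18 h. The T and NK cell genes lay between 6.56 and 7.24 on all 12 arrays.

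Markers of the resident cells of the CL were called at 18 h as well. Of 6 endothelial genes PECAM1, VWF and TIE1 were called higher, of 6 mural cell genes DES and CNN1, and of 6 fibroblast genes PDGFRA, DCN and LUM. The call of TIE1 was lost without control replicate 3 (0.44), and CDH5, an endothelial cadherin, was then called on its brightest probe set (0.56). With all controls 1 of the 2 CDH5 probe sets was called, not the brightest. These counts stand beside 5.71% of all probe sets called higher at 18 h. Of 5 steroidogenic genes STAR, HSD3B1 and LHCGR, the luteinising hormone receptor, were called lower, by −0.46, −1.35 and −2.76, where 6.63% of all probe sets were called lower. None of 3 red cell genes was called by limma on its brightest probe set, and HBB lay between 6.27 and 7.42 there. Of the 4 HBB probe sets, however, 1 was called at 6 h and 2 at 18 h. At 18 h 1 of the 3 genes had an unadjusted p under 0.05, as had 6259 of all 24016 probe sets. At 18 h 5 of 6 genes in each of the endothelial, mural cell and fibroblast lists had a difference above 0. The exceptions were KDR (−0.53), MYH11 (−0.35) and COL3A1 (−0.22), none called. The part of all these markers in the differences of the macrophage genes was not tested.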

How the data were processed

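Total RNA of 12 buffalo corpora lutea was hybridised to GeneChip Bovine Genome Arrays. The values, on a log2 scale, were produced by the authors with RMA (robust multichip average), which corrects background, normalizes between arrays and summarises the probes of a probe set. Its version and chip definition were not given in the sources used here. Of 24128 probe sets, 112 controls were left out. Of the 24016 tested, 13292 carried 1 symbol, 86 several and 10638 none in the platform annotation.

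All probe sets and 12 arrays were fitted with 4 group means in limma 3.58.1 (R 4.3.3, lmFit, contrasts.fit and eBayes, two-sided, Benjamini-Hochberg over 24016 probe sets), tested on simulated data. A call is an adjusted p under 0.05. A gene in a list was represented by its brightest probe set with 1 symbol, and its other probe sets were not always called alike. Besides every probe set of the 10 symbols, named genes were the up to 3 called genes of each list with the lowest adjusted p at 18 h, defining markers and the 3 nearest genes to 5 members; exceptions are stated. Members and lists were chosen with earlier results of these data known. Groups came from the labels. The paper linked to the series described another experiment, and its methods were not used. The number of arrays limits the precision.

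The alternatives were median centring, repeated quantile normalization, leaving out the dimmest 40% of probe sets, trended robust variances, a replicate block, averaged control replicates 1 and 4, only the 2 groups compared, the mean of a gene's probe sets, and each array left out.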

Additional observations from a re-analysis of the deposited data

Results flagged for a closer look

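In 8 of the 12 probe sets 1 control animal, replicate 3, was far above the other 3. The gap from it to the next control, as a share of the whole range of the 4 controls, was 0.921 in AIF1, 0.890 in FCER1G, 0.864 in LAPTM5, 0.857 in FCGR2B and 0.845 in TYROBP, and 0.851, 0.895 and 0.864 in the 3 MSR1 probe sets. In groups of 4, chance alone gives such a gap, at either end and in any animal, in about 1 in 20. The probe sets share the same animal, so these are not 8 separate observations. Over all probe sets, 1.78% had this gap with control replicate 3 at the top. That is only a part of the arrangements counted in the 1 in 20, so these 2 rates cannot be compared. Both CD14 probe sets, CD68 and LGALS3 did not have it.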

How the results depend on the processing

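The calls of both CD14 probe sets, CD68, FCGR2B and LGALS3 at 18 h and of the brighter CD14 probe set at 6 h held under each of the 7 other settings run on them and without each array in turn. LAPTM5 and TYROBP at 18 h lost their calls under the replicate block, with control replicates 1 and 4 averaged and with only the 2 groups compared. With only the 2 groups compared, LGALS3 at 6 h lost its call and FCGR2B at 6 h gained one, as FCGR2B also did without 18 h replicate 2. Counts of called member probe sets over the fits without 1 array ran from 0 to 0 at 3 h, 1 to 4 at 6 h, 5 to 12 at 18 h (12 without control replicate 3) and 0 to 1 at 18 h against 6 h, where fitting only these 2 groups also gave 1. For the related genes of the lists these fits gave 1 to 14 called genes at 6 h and 3 to 23 at 18 h, the highest both without control replicate 3. At 6 h, against 4 in the main analysis, 2 were called after median centring, 1 with control replicates 1 and 4 averaged and 2 with the mean of a gene's probe sets.

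Deviations of same-numbered arrays from their group means correlated from −0.26 to 0.19 over 15 pairs, with 3 above 0.1. Such deviations cancel out within each small group, so these values cannot decide whether replicate numbers paired the animals. The replicate block gave 1 called related gene at 6 h and 4 at 18 h, and 870 and 1480 called probe sets over the array against 2724 and 2964 without it. With control replicates 1 and 4 averaged, 1376 and 1856 were called. At 3 h the counts were 5, 2 with the block and 0 with the averaged controls. At 18 h against 6 h they were 108, 10 and 59.

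Several small uncalled differences changed sign. Under the replicate block these were FCGR2B (−0.21), TYROBP (−0.073), AIF1 (−0.23) and 2 MSR1 probe sets (−0.073 and −0.28) at 3 h and an MSR1 probe set (−0.073) at 6 h. Averaging control replicates 1 and 4 turned MSR1 probe sets at 3 h (−0.0082) and 6 h (−0.064), and median centring turned AIF1 at 6 h (0.0051). Without 1 array, the ranges at 3 h were −0.027 to 0.83 in AIF1, −0.0064 to 0.24 in FCGR2B, −0.55 to 0.42 in the brightest MSR1 probe set and −0.052 to 0.59 in a dim one. At 6 h they were −0.26 to 0.60 in AIF1 and −0.45 to 0.53, −0.27 to 0.41 and −0.14 to 0.24 in MSR1. The cause was not tested. Leaving out the dimmest probe sets removed 2 of the 12, both of MSR1, whose low signal limits what they can show.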
